A study of Mus musculus with 4 samples.

Results

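Amino acid transporter genes were examined in prostate lobes that carry a TMPRSS2:ERG transgene. They were chosen by name, as the rows of the deposited expression table whose symbol begins with Slc1a, Slc3a, Slc6a, Slc7a, Slc36a, Slc38a or Slc43a and a digit, which gave 62 of the table's 23242 rows in 7 families. The rule used no measured value, but it was chosen with earlier results of these data known. It also took in Slc7a6os, a neighbour of Slc7a6 that is not a transporter, and some Slc6a carriers of monoamines and creatine.

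RNA was sequenced from ventral and dorsal prostate lobes of 4 mice of the FVB strain, 2 wild type (mice 27 and 28, ERG negative) and 2 TMPRSS2:ERG homozygotes (mice 26 and 29, ERG positive). The homozygotes descend from a single germline sub-line. It carries human ERG exons within a bacterial artificial chromosome of the TMPRSS2 locus, after removal of a floxed GFP by Cre protein injected into pronuclei. The wild types carry no transgene, and the labels give neither age nor castration or hormone state. TMPRSS2 is an androgen-regulated gene of luminal epithelium, and the lobes were sequenced whole.

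Amino acids cross membranes on carrier proteins. Slc1a, Slc6a and Slc38a carriers mostly use the sodium gradient, Slc36a carriers use protons, and Slc43a carriers let neutral amino acids pass down their gradient. Most Slc7a carriers are light chains that reach the cell surface bound to a heavy chain, Slc3a2 (CD98hc) or Slc3a1 (rBAT), and exchange one amino acid for another. With Slc3a2, Slc7a5 (LAT1) exchanges large neutral amino acids and Slc7a11 (xCT) exports glutamate for cystine, a source of cysteine for glutathione. A shortage of amino acids raises many of these genes through the transcription factor ATF4, which binds amino acid response elements.

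The 3 members that rose in homozygotes (Slc7a11, Slc3a2 and Slc38a5) are shown by their RefSeq promoter windows (GRCm38.p6, from 250 bases before to 50 after a start site), because ATF4 and ETS factors such as ERG bind short motifs that can be looked for there. Capitals mark matches to 3 motifs, searched on both strands: TGATGNAA (amino acid response element), TGACNNNGC (antioxidant response element of NRF2) and CCGGAA (ETS core). None of the marked matches overlapped another motif.
Slc7a11, chr3:50443564-50443863, minus strand: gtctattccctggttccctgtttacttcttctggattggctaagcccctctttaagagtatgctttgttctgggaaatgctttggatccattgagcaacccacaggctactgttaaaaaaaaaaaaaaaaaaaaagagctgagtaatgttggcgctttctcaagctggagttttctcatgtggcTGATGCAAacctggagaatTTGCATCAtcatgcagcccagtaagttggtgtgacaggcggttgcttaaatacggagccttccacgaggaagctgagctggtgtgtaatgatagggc
Slc3a2, chr19:8713848-8714147, minus strand: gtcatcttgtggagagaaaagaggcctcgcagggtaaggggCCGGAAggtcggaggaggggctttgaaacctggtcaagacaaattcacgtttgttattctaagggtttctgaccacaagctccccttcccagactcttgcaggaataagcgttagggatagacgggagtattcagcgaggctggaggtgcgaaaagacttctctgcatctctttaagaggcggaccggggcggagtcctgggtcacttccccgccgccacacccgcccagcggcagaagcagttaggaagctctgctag
Slc38a5, chrX:8271131-8271430, plus strand: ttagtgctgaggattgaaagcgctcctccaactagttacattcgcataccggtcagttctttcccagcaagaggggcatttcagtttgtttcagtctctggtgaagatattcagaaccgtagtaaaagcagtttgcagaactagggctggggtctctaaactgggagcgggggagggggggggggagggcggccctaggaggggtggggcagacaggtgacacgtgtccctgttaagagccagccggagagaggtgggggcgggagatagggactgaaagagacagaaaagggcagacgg

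The Slc7a11 window held the amino acid response element 2 times, at 66 to 59 bases before the start site on the strand of the gene and at 47 to 40 bases before it on the opposite strand. That motif occurred in 3.97% of the 32851 promoter windows in the table, and 23 windows (0.07%) held it 2 or more times. The Slc3a2 window held the ETS core at 209 to 204 bases before the start site, a motif present in 14.9% of all windows. This start lies inside the deposited Slc3a2 locus, which reaches 8723369, so a longer transcript has another start. The Slc38a5 window held none of the 3 motifs. The antioxidant response motif, in 12.4% of all windows, was in none of these 3. RefSeq windows matched 44 of the 62 members by symbol. Of those 44, 3 had the amino acid response element (Slc7a11, Slc1a4 and Slc7a7), 8 the antioxidant motif and 10 the ETS core. Some members have more than 1 window, whereas the shares of all windows are counted by window. Of the members' 65 windows, 4 held the amino acid response element, 10 the antioxidant motif and 11 the ETS core. A match is a string of letters, not a measured site.

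Values are FPKM (fragments per kilobase of transcript, relative to the fragments of the library) divided by a scaling factor per library, called scaled FPKM below, and pairs of values are given in the order of mice 27 and 28 for wild types and mice 26 and 29 for homozygotes. Each library had 11541 to 11854 genes at 1 FPKM or more, and the number of fragments behind them is not stated, so no counting error can be given. Prostate luminal genes were present in all 4 libraries: probasin (Pbsn) was at 9477 to 14390 scaled FPKM and Hoxb13 at 237.3 to 288.1. Of the 10 luminal genes tested, 1 rose by limma (Epcam) and 1 fell (Tmprss2). Their sum was 18300 and 15990 in wild types and 44670 and 28300 in homozygotes. Much of that difference was Msmb, which did not pass, at 4240 and 4729 in wild types and 28100 and 14920 in homozygotes. The part of luminal cells in the members was not tested. Mouse Erg was at 0.881 to 1.12 scaled FPKM in all 4 libraries, and the human cassette was not analysed here. Both wild-type libraries stood apart in other tissue genes. In mouse 27 the 8 seminal vesicle genes of a marker list summed to 40570 scaled FPKM, against 11010 in mouse 28, 4350 in mouse 26 and 8183 in mouse 29, and none of the 8 was at 0 in all libraries. Pate4 made up most of these sums in the last 3, and without it the other 7 genes summed to 24700, 1110, 32.0 and 35.4 in the same order, all 7 lower in both homozygotes. Of the 8, 5 fell by limma (Svs1, Svs3a, Svs3b, Svs6 and Sva), with homozygote means of 0.133% to 0.225% of the wild-type mean. In mouse 28, 12 sympathetic neuron genes, a list drawn up after the values were seen, summed to 109.6 scaled FPKM, against 21.1, 24.5 and 20.9 in mice 27, 26 and 29. All 5 nerve and glia markers were also highest in mouse 28.

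In wild-type and homozygous lobes alike, a few carriers held most of the transporter RNA. The 62 rows spanned 0 to 155.8 scaled FPKM, and 12 had a mean of 10 or more. Slc1a5 (ASCT2), the sodium-dependent glutamine exchanger, was the most abundant in each of the 4 libraries, at 127.2 and 155.8 scaled FPKM in wild types and 110.3 and 111.5 in homozygotes. Slc38a10 followed by mean level, at 82.4, 80.8, 86.3 and 91.9 scaled FPKM in wild types and homozygotes in the order above. The heavy chain gene Slc3a2 came next, and its homozygote values of 90.7 and 90.5 lay within the range of Slc38a10. Slc7a4, a relative of the cationic carriers whose own substrate is not settled, and Slc7a5 were next, with wild-type values of 56.9 and 63.7 for Slc7a4 and 46.1 and 49.4 for Slc7a5. Slc38a2 (SNAT2), a carrier of small neutral amino acids, lay between 24.9 and 25.8 scaled FPKM in all 4 libraries, a range that overlapped that of Slc38a1 (16.1 to 26.1). The glutamine carriers Slc1a5, Slc38a1 and Slc38a2 were thus among the high members in every library, whereas Slc38a3, another glutamine carrier, was at 0.0529 to 0.204 scaled FPKM, and the brain glutamate carrier Slc1a2 was at 0.0570 scaled FPKM or less.

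**Figure D1:**
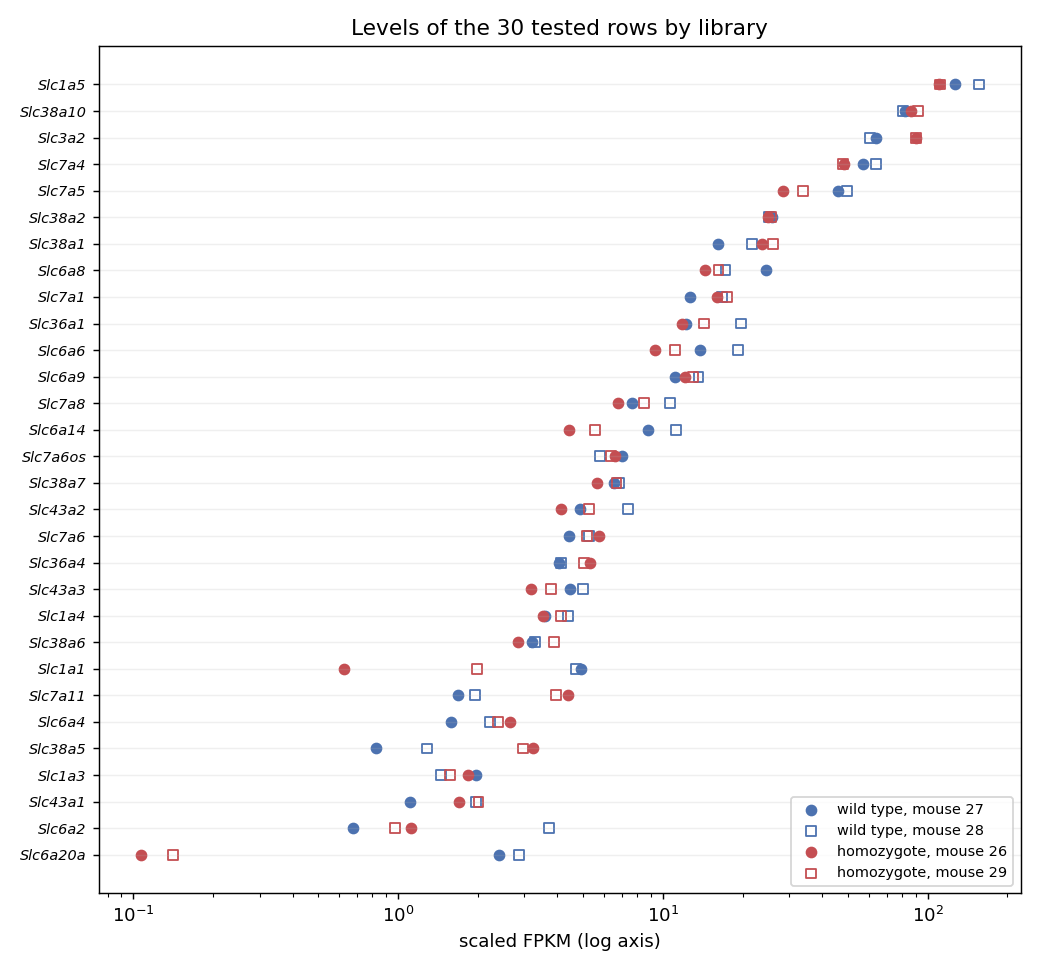
Each point is 1 library's level of 1 gene in scaled FPKM on a log axis, for the 30 rows that passed the filter, ordered by mean level; blue marks wild type and red homozygotes. Slc1a5 is at the top at 110.3 to 155.8, and Slc6a20a at the bottom shows the widest gap between genotypes.

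Of the 62 rows, 30 averaged 1 scaled FPKM or more and were tested, and 32 were not. Among the 30, 3 rose in homozygotes (Slc3a2, Slc7a11 and Slc38a5) and 4 fell (Slc1a1, Slc6a14, Slc6a20a and Slc7a5), by limma with an adjusted p under 0.05 over all 11762 genes tested. That is 23.3% of the tested rows. The background was 7.65% of all genes tested, 4.65% higher and 3% lower. With no filter on low values, 3.51% of members were called, against 4.08% of all genes tested. In the other limma alternatives on all 4 libraries, 13.3% to 23.3% of members were called, against 5.82% to 8.28% of all genes tested. Of all calls 60.8% were higher with scaling and 73.0% without it. The median log2 fold change was -0.03 over the 30 rows and -0.003 over all genes tested, with 14 rows above 0 and 16 below. The groups did not overlap in 16 of the 30, 7 higher and 9 lower, where the background was 51.1% of all genes tested (25.3% higher and 25.8% lower). With 2 mice a group, the smallest two-sided p that an exact permutation test of a single gene allows is 0.33, so each call below rests on the limma fit. Leaving out mouse 27 or mouse 28 raised the share called among members and also among all genes tested. Leaving out mouse 26 or mouse 29 lowered both shares, and most of the calls below were then lost. Without mouse 26 the share among members was close to that among all genes tested. Each such fit has 1 library in a genotype, which is assumed to vary like the other genotype, so that fits without mouse 27 or mouse 28 take the spread from the 2 homozygotes. Those differed by a median of 0.13 on the log2 scale over the tested members, against 0.26 between the wild types. In whole lobes, fewer cells of a type and less RNA per cell cannot be told apart.

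**Figure D2:**
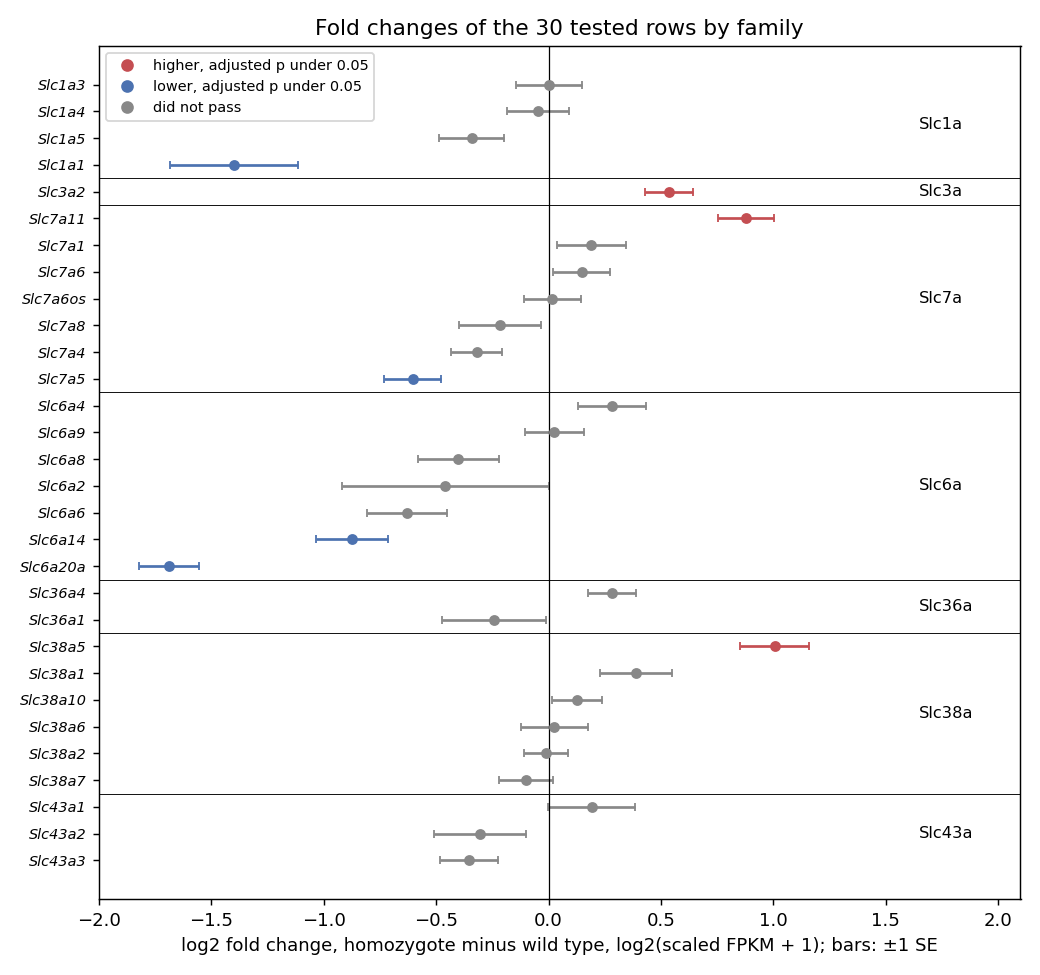
Points are log2 fold changes (homozygote minus wild type, on log2(scaled FPKM + 1)) of the 30 tested rows, grouped by family, with bars of 1 SE; red and blue mark an adjusted p under 0.05. The 3 red points are Slc3a2, Slc7a11 and Slc38a5, and the 4 blue points are Slc1a1, Slc7a5, Slc6a14 and Slc6a20a.

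Among heavy chains, Slc3a2 rose and Slc3a1 was listed at 0 in all 4 libraries. Slc3a2 (Entrez 17254, chromosome 19, 8706882 to 8723369, mm10) was at 63.8 and 60.6 scaled FPKM in wild types and at 90.7 and 90.5 in homozygotes. Both homozygotes were above both wild types, and the 2 homozygotes were nearly equal. The mean went from 62.2 ± 2.30 to 90.6 ± 0.103 scaled FPKM (SD, n = 2 each), a limma log2 change of 0.54 ± 0.109 SE (adjusted p = 0.0449). Of 12 alternatives, 3 lost the call: without mouse 26, without mouse 29 and with no filter on low values (adjusted p = 0.0517 by limma). The 12 include the authors' deposited comparison, which has a q-value of 0.00451. Slc3a1 overlaps Prepl in the table, and a listed 0 can be a failed estimate: Gapdh, which every cell uses, was listed at 0.0143 to 0.0805 scaled FPKM.

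Among the light chain partners of Slc3a2 that were tested, Slc7a11 rose, Slc7a5 fell and Slc7a6 and Slc7a8 did not pass. Slc7a11, the cystine and glutamate exchanger (Entrez 26570, chromosome 3, 50364936 to 50443613), was at 1.68 and 1.96 scaled FPKM in wild types and at 4.40 and 3.96 in homozygotes. Each homozygote lay above both wild types. Group means went from 1.82 ± 0.195 to 4.18 ± 0.314 scaled FPKM (SD, n = 2 each), 2.30-fold, with a limma log2 change of 0.88 ± 0.123 SE (adjusted p = 0.0146). Of 11 alternatives, 2 lost the call, namely leaving out mouse 26 or mouse 29. Among the 11 is the authors' deposited comparison, with a q-value of 1.49e-05. The part of the amino acid response elements in its promoter window, shown above, was not tested. The other members with that motif were Slc1a4, whose groups overlapped, and Slc7a7, which was listed at 0.

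Slc7a5 fell. This exchanger of leucine and other large neutral amino acids (Entrez 20539, chromosome 8, 121881146 to 121907686) was at 46.1 and 49.4 scaled FPKM in wild types and at 28.4 and 33.9 in homozygotes. The groups did not overlap. On average it went from 47.8 ± 2.39 to 31.2 ± 3.85 scaled FPKM (SD, n = 2 each), with a limma log2 change of -0.60 ± 0.127 SE (adjusted p = 0.0490), just inside the threshold. It was lost under 7 of 12 alternatives (adjusted p between 0.0138 and 0.452), among them unscaled FPKM, quantile normalization, a pseudocount of 0.1 and leaving out mouse 26 or mouse 29.

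Slc7a6 (y+LAT2), which exchanges cationic for neutral amino acids, was at 4.40 to 5.72 scaled FPKM, and Slc7a8 (LAT2), another neutral exchanger, at 6.80 to 10.6. Neither passed, and their groups overlapped. Slc7a10 (Asc-1), a carrier of small neutral amino acids, was below the filter at 0.469 to 1.03 scaled FPKM. Slc7a7 (y+LAT1) was listed at 0 in all libraries, while its log2 fold in the authors' deposited table is 0.05, so its level is unknown here. FPKM are per length, so levels of these genes can be set side by side as far as each estimate holds. Slc7a7, at an unknown level, is not in the sums below. Over Slc7a5, Slc7a6, Slc7a8, Slc7a10 and Slc7a11, the summed light chain level was 60.8 and 67.7 scaled FPKM in wild types and 46.1 and 52.1 in homozygotes. Slc7a11 made up 2.77% and 2.89% of that sum in wild types and 9.56% and 7.59% in homozygotes, and Slc7a5 went from 75.8% and 73.0% to 61.8% and 65.0%. The level of Slc7a5 was 27.4 and 25.3 times that of Slc7a11 in wild types and 6.46 and 8.56 times in homozygotes. Slc3a2 stood at 1.05 and 0.894 of the light chain sum in wild types and at 1.97 and 1.74 in homozygotes. These ratios were not tested, since they combine the called Slc3a2, Slc7a5 and Slc7a11 with genes that did not pass (Slc7a6 and Slc7a8) or lay below the filter (Slc7a10).

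**Figure D3:**
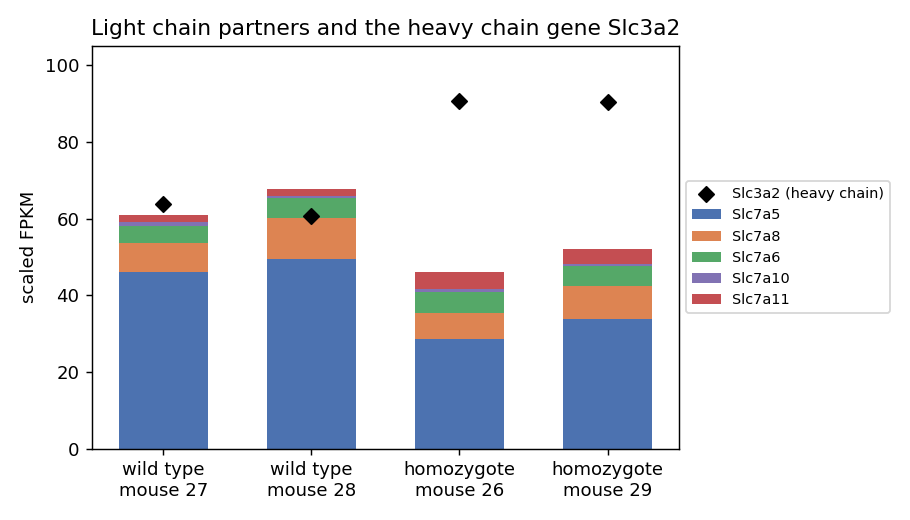
Stacked bars give the scaled FPKM of 5 light chain genes that pair with Slc3a2 in each library, and diamonds give Slc3a2. The bars are shorter and the diamonds higher in the 2 homozygotes, where Slc3a2 is 1.97 and 1.74 times the sum of these 5 genes. Slc7a7 is not included.

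The cationic Slc7a carriers did not pass. Slc7a1 (CAT-1), the widespread arginine and lysine carrier, was at 12.7 and 16.7 scaled FPKM in wild types and at 16.0 and 17.5 in homozygotes, so the groups overlapped. Slc7a4 was at 56.9 and 63.7 in wild types and 48.2 and 47.8 in homozygotes, without overlap (limma log2 change -0.32 ± 0.113 SE, adjusted p = 0.183). Slc7a2 was below the filter at 0.522 to 0.790 scaled FPKM. The kidney light chain Slc7a9, the partner of Slc3a1, was at 0.0962 scaled FPKM in mouse 27 and listed at 0 in the other libraries.

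In the Slc1a family the glutamate carrier Slc1a1 fell, while the neutral carriers did not pass. Slc1a1 (EAAT3, which takes up glutamate, aspartate and cysteine; Entrez 20510, chromosome 19, 28835166 to 28913960) was at 4.91 and 4.72 scaled FPKM in wild types and at 0.625 and 1.99 in homozygotes. Both homozygotes were below both wild types, but they differed from each other more than the wild types did. The mean went from 4.82 ± 0.139 to 1.31 ± 0.967 scaled FPKM (SD, n = 2 each), 3.68-fold lower, with a limma log2 change of -1.40 ± 0.285 SE (adjusted p = 0.0456). The call was lost under 5 of 11 alternatives: no filter (adjusted p = 0.116 by limma), a pseudocount of 0.1, quantile normalization, unscaled FPKM, and without mouse 26. It was kept in the authors' deposited comparison, also among the 11, whose q-value of 8.40e-09 comes from another method. Slc1a5, at the levels given above, did not overlap between genotypes and was lower in homozygotes, but did not pass (limma log2 change -0.34 ± 0.144 SE, adjusted p = 0.259). Slc1a4 (ASCT1), a carrier of serine and alanine, was at 3.53 to 4.40 scaled FPKM and Slc1a3 (GLAST), a glutamate carrier of glia, at 1.45 to 1.98, each with overlapping groups. Slc1a2, Slc1a6 and Slc1a7, known from brain and retina, stayed under 0.1 scaled FPKM in every library.

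In the Slc6a family 2 of 7 tested members fell, both sodium-dependent carriers of amino acids, and none rose. Over all genes tested 3% fell and 4.65% rose. Slc6a20a, a sodium-dependent carrier of proline and other imino acids (Entrez 102680, chromosome 9, 123636907 to 123678832), was at 2.40 and 2.87 scaled FPKM in wild types and at 0.107 and 0.142 in homozygotes. The wild types were close to each other and far above both homozygotes. Group means went from 2.64 ± 0.338 to 0.124 ± 0.0246 scaled FPKM (SD, n = 2 each), 21.2-fold lower, the largest ratio among the tested members. On the fitted scale, which compresses low values, there was a limma log2 change of -1.69 ± 0.133 SE (adjusted p = 0.00210), and the authors' deposited table gives -4.36. The call held under all 10 alternatives that gave a value, with an adjusted p of at most 0.008. Slc6a20a passed the filter only through the wild types, and without mouse 28 or at a minimum mean of 5 it was not tested. Its paralogue Slc6a20b, at the same place on chromosome 9 (123593820 to 123632565), was far lower, at 0.116 and 0.0979 scaled FPKM in wild types and 0.0149 and 0.00704 in homozygotes. No source used here says how reads shared by these paralogues were assigned.

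Slc6a14 (ATB0,+), which takes up neutral and cationic amino acids (Entrez 56774, chromosome X, 21714900 to 21742357), was at 8.82 and 11.2 scaled FPKM in wild types and at 4.44 and 5.56 in homozygotes. The groups did not overlap. On average it went from 10.02 ± 1.70 to 5.0 ± 0.793 scaled FPKM (SD, n = 2 each), with a limma log2 change of -0.88 ± 0.160 SE (adjusted p = 0.0327). Of 12 alternatives, 4 lost the call: unscaled FPKM (adjusted p = 0.103 by limma), no filter, without mouse 26 and without mouse 29. Counted in the 12 is the authors' deposited comparison, with a q-value of 4.92e-04. Slc6a9 (GlyT1), a glycine carrier, was at 11.1 to 13.6 scaled FPKM with overlapping groups.

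The Slc6a carriers of other substrates did not pass. Slc6a6, the taurine carrier, was at 13.8 and 19.2 scaled FPKM in wild types and at 9.34 and 11.1 in homozygotes. The groups did not overlap, but the wild types were far apart (limma log2 change -0.63 ± 0.178 SE, adjusted p = 0.109). Without mouse 27 its log2 fold change was -0.86, in a fit whose spread comes from the homozygotes alone. Slc6a8, the creatine carrier, was at 24.5 and 17.3 in wild types and 14.5 and 16.2 in homozygotes (limma log2 change -0.40 ± 0.179 SE, adjusted p = 0.284). Its log2 fold change was -0.64 without mouse 28. Slc6a4, the serotonin carrier, was at 1.59 and 2.22 scaled FPKM in wild types and 2.65 and 2.38 in homozygotes, and did not pass. Slc6a11, Slc6a12 and Slc6a13, which carry GABA, were below the filter, with Slc6a13 the highest of these at 0.374 to 0.773.

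In the Slc38a family 1 of 6 tested members rose and none fell, where 4.65% of all genes tested rose and 3% fell. Slc38a5 (SNAT5), a carrier of glutamine, histidine and other neutral amino acids (Entrez 209837, chromosome X, 8271392 to 8280176), was at 0.823 and 1.29 scaled FPKM in wild types and at 3.24 and 2.97 in homozygotes. Each homozygote lay above both wild types. The mean went from 1.06 ± 0.330 to 3.11 ± 0.194 scaled FPKM (SD, n = 2 each), 2.94-fold, with a limma log2 change of 1.01 ± 0.153 SE (adjusted p = 0.0189). It was lost with no filter, without mouse 26 and without mouse 29 (adjusted p between 0.00161 and 0.0900 over 11 alternatives). Slc38a10 was higher in both homozygotes, at the levels given above, and did not pass (limma log2 change 0.13 ± 0.112 SE, adjusted p = 0.611). Slc38a7, a lysosomal glutamine carrier, was at 5.67 to 6.81 scaled FPKM and Slc38a6 at 2.84 to 3.88, with overlapping groups. Slc38a9, the lysosomal arginine sensor that signals to mTORC1, lay just under the filter at 0.805 and 0.803 in wild types and 0.702 and 0.692 in homozygotes.

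**Figure D4:**
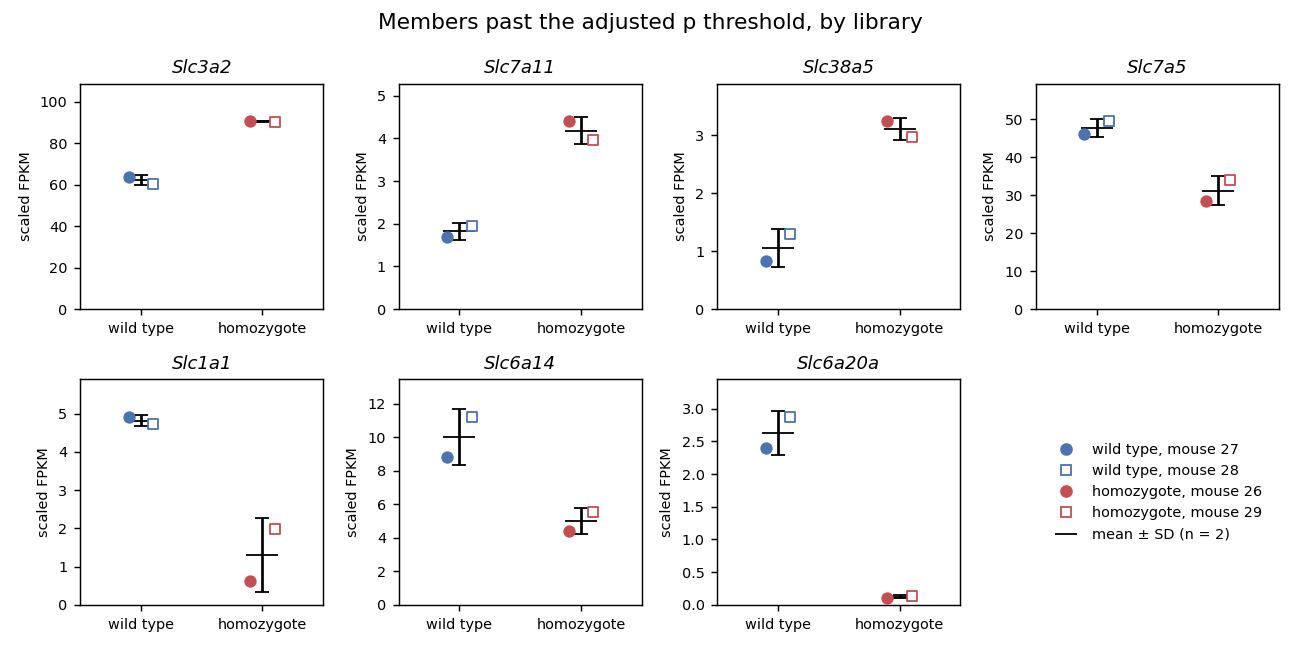
Each panel gives the scaled FPKM of 1 member in the 4 libraries, with the mean and SD of each genotype (n = 2), on axes that start at 0. Slc3a2, Slc7a11 and Slc38a5 are higher in both homozygotes, and Slc7a5, Slc1a1, Slc6a14 and Slc6a20a are lower in both.

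Slc38a1, Slc38a2 and Slc38a4 are neighbours on chromosome 15, between 96571418 and 97055956, and their levels differed widely. Slc38a1 (SNAT1), a glutamine carrier, was at 16.1 and 21.8 scaled FPKM in wild types and 23.7 and 26.1 in homozygotes, higher in both homozygotes without passing by limma, while the authors' deposited table has a q-value of 0.00109 for it (log2 fold 0.40). Slc38a2 was level, as given above. Slc38a4 was below the filter at 0.504 and 0.444 in wild types and 0.203 and 0.273 in homozygotes. The proton-coupled genes Slc36a1, Slc36a2 and Slc36a3 also lie together, on chromosome 11. Of these, Slc36a1 (PAT1), which exports small amino acids from lysosomes and takes them up at the gut surface, was at 12.2 and 19.8 scaled FPKM in wild types and 11.9 and 14.3 in homozygotes (limma log2 change -0.24 ± 0.231 SE, adjusted p = 0.643). Its direction rested on mouse 28: without that library the log2 fold change was 0.088, and without mouse 27 it was -0.57. Slc36a2 was at 1.15 and 0.852 in wild types and 0.586 and 0.459 in homozygotes, under the filter, and Slc36a3 was listed at 0 throughout. Slc36a4, on chromosome 9, was at 4.04 and 4.14 in wild types and 5.31 and 5.06 in homozygotes, without overlap and without passing.

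The facilitative Slc43a carriers did not pass. Slc43a2 (LAT4), which lets branched-chain amino acids and other large neutral ones pass, was at 4.86 and 7.36 scaled FPKM in wild types and 4.12 and 5.27 in homozygotes (limma log2 change -0.30 ± 0.204 SE, adjusted p = 0.485). Its log2 fold change was -0.56 without mouse 27. Slc43a1 (LAT3), first described as a gene of prostate cancer, was at 1.11 and 1.97 scaled FPKM in wild types and 1.71 and 2.01 in homozygotes, with overlapping groups. Slc43a3, now known as a purine base carrier, was at 4.45 and 5.01 in wild types and 3.18 and 3.78 in homozygotes, lower in both without passing.

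The other 32 rows lay below the filter. Of these, 5 were listed at 0 in every library (Slc3a1, Slc6a5, Slc7a7, Slc36a3 and Slc38a8), and 16 stayed under 0.1 scaled FPKM in every library, those 5 included. The remaining 16 reached 0.1 or more in some library, and 2 of them, Slc36a2 and Slc7a10, reached 1.

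Some members, most of them low, stood out in mouse 28, and they are described here because of those values. Mouse 28 was the highest library for 14 of the 30 tested members (46.7%, against 31.3% of all genes tested). It was the highest for 13 of the 27 untested ones above 0. There 7 members were at least 2 times the next highest library, 1 of them (Slc6a11) at 0.00582 scaled FPKM and listed at 0 in the others. No share over all genes is given for the untested members or for the limit of 2 times. Slc7a14, a brain and retina carrier, was at 0.786 scaled FPKM in mouse 28 and at 0.0529, 0.0408 and 0.0415 in mice 27, 26 and 29, so mouse 28 was 14.9 times the next highest library. Slc7a3 (CAT-3), a neuronal arginine carrier, was at 0.534 in mouse 28 and at 0.0753 or less elsewhere. Slc6a15 (B0AT2), a neuronal carrier of branched-chain amino acids and proline, was at 0.951 in mouse 28 and at 0.230 or less elsewhere. Slc6a2, the noradrenaline carrier of sympathetic neurons, was at 3.72 in mouse 28 and 0.673, 1.12 and 0.972 in mice 27, 26 and 29. Slc6a17, a vesicular carrier of neurons, and Slc38a11 were each 2.34 or 2.35 times the next highest library in mouse 28. All 12 sympathetic neuron genes, a list drawn up after the values were seen, were highest in the same library. Dbh and Th, enzymes of noradrenaline synthesis, were at 5.53 and 6.23 scaled FPKM in mouse 28 and at 0.513 and 0.763 or less elsewhere. Sums of this list by library are given above, and its part in the levels of these transporters was not tested.

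**Figure D5:**
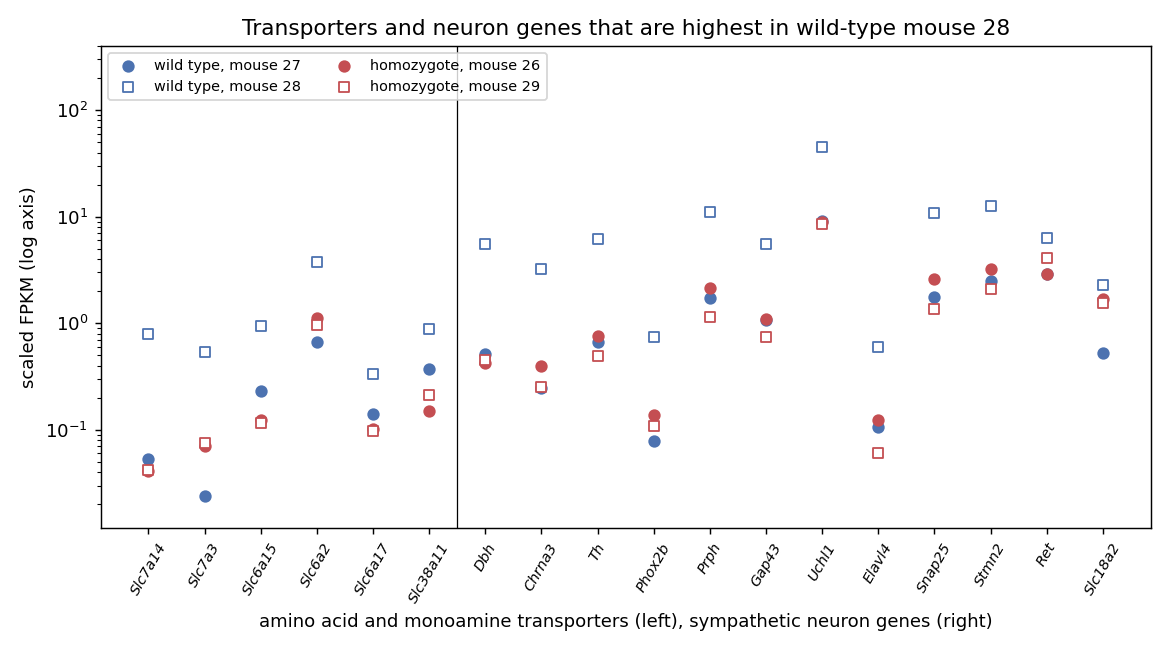
Points give the scaled FPKM on a log axis of the 6 transporters described above (left) and 12 sympathetic neuron genes (right) in the 4 libraries. The open blue square, wild-type mouse 28, is the highest point for every gene shown, and mouse 27 lies with or near the homozygotes for most. The transporters were picked for high values in mouse 28, and the neuron genes were listed after the values were seen.

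The authors' deposited table gives a q-value for 42 of the 62 rows and a q-value under 0.05 for 15 of them, 4 higher and 11 lower, where 14.2% of all rows with a q-value are under 0.05. All 7 members called by limma are among the 15 and have the same direction there. Another 3 were tested by limma without passing (Slc38a1, Slc6a2 and Slc6a6), and 5 were below the filter (Slc38a11, Slc6a15, Slc6a17, Slc7a3 and Slc7a14). Those 5 and Slc6a2 are the 6 transporters shown beside the neuron genes, each at least 2 times the next highest library in mouse 28, with deposited log2 folds from -3.54 for Slc7a14 to -1.25 for Slc6a2. Against mouse 27 alone, both homozygotes were lower for Slc7a14, Slc6a15, Slc6a17 and Slc38a11 and higher for Slc6a2 and Slc7a3, which was at 0.0240 scaled FPKM in mouse 27 and at 0.0704 and 0.0753 in homozygotes.

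Some markers of other tissues also differed between genotypes. No tested gene of the basal, fibroblast or endothelial lists passed. Of the 6 kidney and gut genes only 1, Aqp2, was tested, and it did not pass. Aqp2 was at 66.95 and 63.47 scaled FPKM in wild types and 48.67 and 25.86 in homozygotes. Vil1 and Lrp2, below the filter, were also lower in both homozygotes, while Cubn, Fabp2 and Slc34a1 overlapped. The part of such cells in the members was not tested. The seminal vesicle genes were lower in both homozygotes, as were Slc1a1, Slc7a5, Slc6a14 and Slc6a20a, and their part in these 4 was not tested. Their sum was 40570 scaled FPKM in mouse 27 and 11010 in mouse 28 (24700 and 1110 without Pate4), while Slc1a1 was at 4.91 and 4.72, Slc7a5 at 46.1 and 49.4, Slc6a14 at 8.82 and 11.2 and Slc6a20a at 2.40 and 2.87. Of 6 tested leukocyte markers 1 rose, Cd14, a receptor for bacterial lipopolysaccharide, from 6.24 and 6.51 scaled FPKM in wild types to 22.4 and 21.5 in homozygotes. The 8 genes of the leukocyte list summed to 24.9 and 21.2 scaled FPKM in wild types and to 44.8 and 41.3 in homozygotes, and without Cd14 to 18.7 and 14.6 in wild types and 22.4 and 19.7 in homozygotes. Of those 7, 3 were higher in both homozygotes, 2 (Itgam and Cd79a) were lower in both and 2 overlapped. None of the 8 was at 0 in all libraries, Ptprc, the pan-leukocyte gene, was at 0.828 to 1.57, and the part of leukocytes in the rise of Slc7a11, Slc3a2 and Slc38a5 was not tested. Smooth muscle markers had lower sums in homozygotes: 6 genes summed to 2700 and 1846 in wild types and 1319 and 1553 in homozygotes, none passed singly, and their part in the members that fell was not tested either.

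Other genes of amino acid handling were taken from lists set by role, with earlier results of these data known. The share called in each is given beside the 7.65% of all genes tested. In ATF4 and the amino acid response, 2 of 25 tested genes rose and 1 fell (12%, median log2 fold change -0.02). Eif2ak4 (GCN2), the kinase that senses uncharged tRNA, was at 3.85 and 4.18 scaled FPKM in wild types and 8.46 and 8.27 in homozygotes (limma log2 change 0.90 ± 0.107 SE, adjusted p = 0.00851). Trib3, a pseudokinase induced by ATF4, was at 1.84 and 1.60 in wild types and 3.10 and 3.47 in homozygotes (limma log2 change 0.66 ± 0.123 SE, adjusted p = 0.0351). Eif4ebp1, an inhibitor of translation that ATF4 also induces, was at 86.4 and 93.3 in wild types and 46.7 and 40.3 in homozygotes (limma log2 change -1.03 ± 0.126 SE, adjusted p = 0.00917). Thus the 3 called genes of this list did not share a direction. The calls for Eif2ak4 and Trib3 were lost without mouse 26 and without mouse 29, that for Trib3 also with no filter on low values, and that for Eif4ebp1 without mouse 29.

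In amino acid enzymes, 2 of 27 tested genes rose and 4 fell (22.2%, against 7.65% of all genes tested, median log2 fold change -0.18). Ggt1, the cell surface enzyme that splits glutathione and so frees its amino acids for uptake, was at 85.5 and 97.6 scaled FPKM in wild types and 26.2 and 34.3 in homozygotes (limma log2 change -1.57 ± 0.161 SE, adjusted p = 0.00514). Cbs, of cysteine synthesis from homocysteine, was at 27.2 and 41.2 in wild types and 10.4 and 10.8 in homozygotes (limma log2 change -1.57 ± 0.199 SE, adjusted p = 0.0106). Ass1, of arginine synthesis from citrulline, was at 34.7 and 30.8 in wild types and 17.3 and 16.4 in homozygotes (limma log2 change -0.92 ± 0.111 SE, adjusted p = 0.00910), and Arg1, which splits arginine, was at 1.77 and 1.16 in wild types and 5.62 and 3.94 in homozygotes (limma log2 change 1.23 ± 0.199 SE, adjusted p = 0.0230). Asl, the enzyme after Ass1, also fell (-0.57) and Csad, of taurine synthesis, also rose (0.57). These last 2 lie outside the naming rule and were added after their values were seen. The call for Arg1 was lost without mouse 26 and with no filter on low values (adjusted p = 0.0718 by limma), and that for Ass1 without mouse 26 or mouse 29.

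In amino acid sensing by mTORC1, 1 of 28 tested genes rose (3.57%, median log2 fold change 0.002), Gatsl3, the arginine sensor also named Castor1, from 2.81 and 2.77 scaled FPKM in wild types to 5.60 and 5.84 in homozygotes (limma log2 change 0.83 ± 0.107 SE, adjusted p = 0.0111). In cytosolic aminoacyl-tRNA synthetases, 1 of 20 rose (5%, median -0.09), the tryptophan enzyme gene Wars, from 307.9 and 323.9 to 602.3 and 523.4 (limma log2 change 0.83 ± 0.163 SE, adjusted p = 0.0410). Among other amino acid carriers and partners, 1 of 16 rose (6.25%, median -0.06), Mfsd12, of cysteine import into lysosomes and melanosomes, from 7.03 and 7.75 to 11.6 and 10.8 (limma log2 change 0.54 ± 0.110 SE, adjusted p = 0.0458). The calls for Gatsl3, Wars and Mfsd12 were lost without mouse 26 and without mouse 29, those for Wars and Mfsd12 also with no filter, that for Wars also without mouse 27 and without mouse 28, and that for Mfsd12 also with unscaled FPKM, without a trend and in the authors' deposited table.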

How the data were processed

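RNA from 4 FVB mice was compared, homozygote against wild type. The deposited table gives 1 FPKM value per gene and library; the unit was read from the values. TopHat 1.3, Cufflinks 1.3 and build mm10 are named per the submitters' processing notes, without roles or settings. Annotation and strandedness: not given in the sources used here. Beside the FPKM stand the authors' log2 fold, p-value and q-value, per the file headers, with the log base read from the values. A top value of 99999, in 7 genes and no member, was treated as missing. Starts were raised by 1.

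FPKM were divided by median-of-ratios factors (0.921, 1.03, 1.01 and 1.04 in the order of mice 27, 28, 26 and 29). Genes averaging 1 or more were fitted as log2(scaled FPKM + 1) with limma 3.58.1 in R 4.3.3 (trend, two-sided, Benjamini-Hochberg adjustment over 11762 genes, threshold 0.05). With 2 residual degrees of freedom, the spread is borrowed largely from other genes, and the pseudocount understates changes of low genes. The code was tested on simulated data. Fold changes are named for called members, non-overlapping members of at least 0.5 and the most abundant tested member of each family; in other lists for at most 4 called genes. The members and lists were chosen with earlier results of these data known.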

Additional observations from a re-analysis of the deposited data

How the results depend on the processing

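No paired analysis was possible because each library comes from its own mouse and the genotypes share no mouse number. Over all genes tested 900 were called, and the authors' deposited table calls 2034; leaving out each library in turn gave 355 to 2028. For members called higher (3 at the main settings) leaving out each library gave 0 to 4 (4 without mouse 28, with Slc38a1 added), no filter on low values gave 1 and a minimum mean of 5 gave 1. For members called lower (4) leaving out each library gave 1 to 8, unscaled FPKM gave 1, quantile normalization 2, a pseudocount of 0.1 gave 2, no filter 1, a minimum mean of 5 gave 2, and the authors' deposited comparison gave 11. The higher filter tests fewer members (18) and no filter tests more genes (17902), and the cause of the other differences was not tested. With no filter the share called was 3.51% of members and 4.08% of all genes tested. The median over the tested members moved from its main value of -0.03 by less than 0.141, its spread between replicates, under every alternative run, the farthest being -0.16 at a minimum mean of 5. Leaving out rows that overlap another row, and Slc7a6os, chosen after the data were seen, changed neither count.

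Calls in the other lists, leaving out each library in turn, ran from 0 to 2 for other amino acid carriers and partners, 0 to 8 for ATF4 and the amino acid response, 0 to 2 for amino acid sensing by mTORC1, 2 to 8 for amino acid enzymes and 0 in each case for cytosolic aminoacyl-tRNA synthetases. Other carriers and partners had 0 calls with unscaled FPKM, with no filter and without a trend, and 2 in the deposited table. Sensing by mTORC1 had 0 at a minimum mean of 5 and 2 in the deposited table, the synthetases 0 with no filter, and ATF4 and the amino acid response 5 in the deposited table. Of the named genes 1 turned direction, Slc36a1, which ran from -0.57 without mouse 27 to 0.088 without mouse 28. Depth is unknown, so no counting error is given.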
